A study of Mus musculus with 6 samples.

Results

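Solute carriers are membrane proteins that move amino acids, sugars, ions, metals, vitamins, bile acids and other small molecules across the cell surface or the membranes of organelles. Their genes are named Slc, a family number and a member, and members of a family usually share a fold and a kind of substrate. The genes described here were all those whose name fitted this pattern among the array features that could be paired with a gene symbol, apart from Slc2a2, Slc2a5, Slc10a2, Slc11a2, Slc22a18 and Slc40a1. A gene with several probes was represented by the one of highest mean signal from the mouse RNA. This gave 248 genes of 49 families, out of 12354 named genes on the array and 384 names of the pattern in the gene table used for naming. The other 130 names had no paired probe and were not analysed here. The name is not always the function: Slc9a3r1 and Slc9a3r2 encode scaffold proteins and Slc4a1ap an adaptor protein.

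The arrays compared intestinal crypts of LOI(+) and LOI(-) mice, LOI standing for loss of imprinting. LOI(-) mice (n = 3) were wild type; LOI(+) mice (n = 3) had inherited from their mother a deletion of 3 kb of H19 and 10 kb upstream of it, including the region whose methylation controls Igf2, so that the normally silent maternal Igf2 copy is active. The deletion was in the germ line and so in every cell of the animal, not in the crypt alone. All 6 were C57BL/6 mice killed at 120 days, 4 of them labelled male and the other 2, 1 in each group, without a sex label. From the middle part of the small intestine, frozen and cut at 10 µm, 5000 to 13000 crypts per mouse were taken by laser capture microdissection, and each mouse's RNA was labelled with Cy3 and hybridised with 1 common Cy5 reference. That reference pooled RNA of 11 mouse cell lines, derived among others from embryo, liver, kidney, macrophage, lymphocyte, muscle and testis. Every value below is therefore a log2 ratio of crypt RNA over this pool, which says how far a gene stands above or below the cell lines, not how abundant it is next to another gene. Dyes were not swapped, so a dye bias of a probe is part of its level but cancels between mice.

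Crypts are the pockets at the base of the villi in which stem cells divide and from which absorptive and secretory cells arise. In the absorptive cell, carriers at the brush border take nutrients from the lumen, often driven by the sodium gradient that the sodium pump keeps up, and other carriers at the basolateral side pass them to the blood. Proliferating cells use a partly different set, led by facilitative glucose and large neutral amino acid carriers.

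Signal and identity of the arrays were as follows. The median Cy3 signal was 552 to 603 on the 6 arrays over a local background of 387 to 391, and the pairwise correlation of log2 ratios was 0.932 to 0.975 over 37648 genes and probes, as a description. Of the 248 genes, 240 had a Cy3 signal on all 6 arrays brighter than 95% of the negative control spots, and 0 were saturated. Igf2 had a log2 ratio of 0.16, 0.04 and 0.08 in LOI(-) and 0.07, 0.09 and 0.11 in LOI(+) mice. H19 had no paired probe, so the deletion did not check the labels. Goblet cell markers stood high (list mean 4.56 to 4.68 in LOI(-) and 4.44 to 4.59 in LOI(+) mice, 6 of 8 genes measured) and fibroblast markers low (-2.98 to -2.65 and -3.08 to -2.69, 7 of 8 measured). Markers of villus enterocytes were also well above the pool (2.96 to 3.40 and 3.43 to 3.50 over the 7 of 12 genes with a value on all 6 arrays). Myeloid markers were below the pool (-1.09 to -0.98 and -1.20 to -1.11). Nearer the pool were markers of smooth muscle (-0.46 to -0.23 and -0.61 to -0.44) and endothelium (-0.06 to 0.11 and -0.06 to 0.14). A ratio to cell lines does not measure how free of other tissue the crypts were. In these pieces of tissue, more cells of a type and more RNA per cell cannot be told apart.

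Of the 248 solute carrier genes, 29 stood above the reference in wild-type crypts and 14 below it, taking as called a log2 ratio beyond 1 or -1 with an adjusted p under 0.05 in limma. These were 11.7% and 5.65% of the genes, where 4.22% and 5.54% of all 37939 genes and unnamed probes were called, and 6.69% and 8.82% of the named genes. The other 205 lay between -1 and 1, and the median over all 248 was 0.04. The p of a level covers the spread between arrays only, not dye bias or differences between probes of a gene. Named genes were chosen by rank, and the remaining called genes are named because their values were seen.

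**Figure D1:**
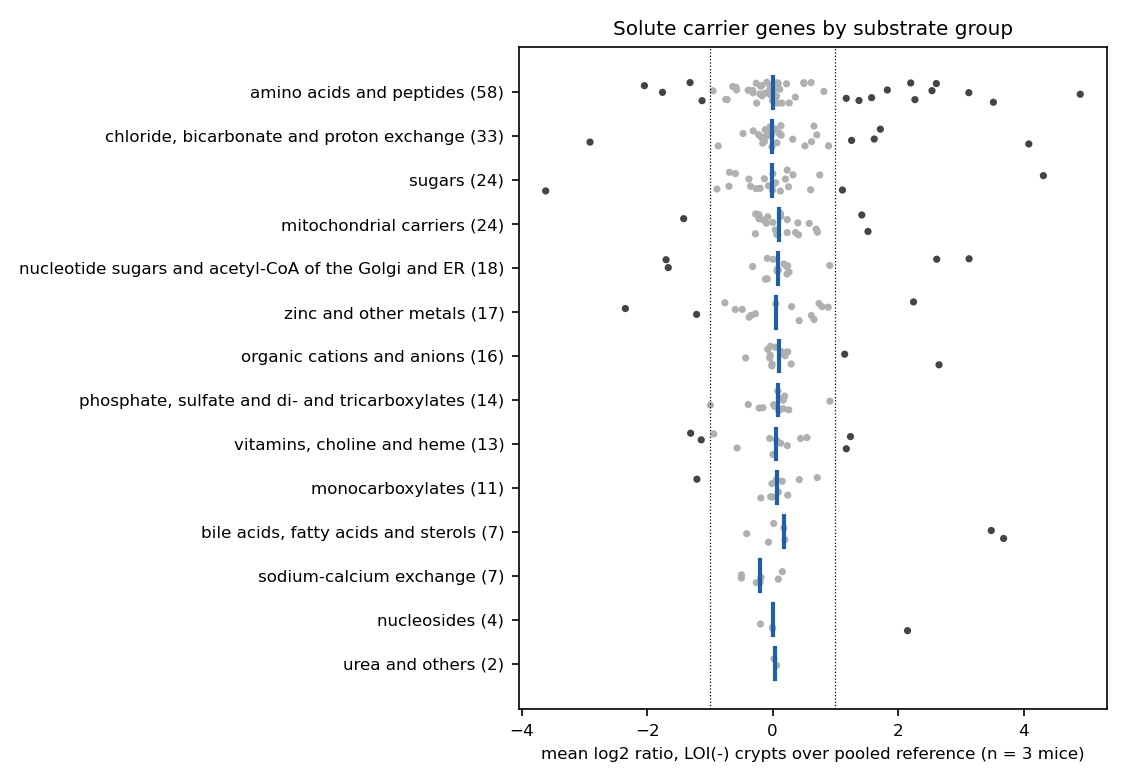
Mean log2 ratio of wild-type, LOI(-), crypts (n = 3 mice) over the pooled reference for each of the 248 solute carrier genes, 1 point per gene, by substrate group with the number of genes in brackets. Blue bars are group medians, dotted lines stand at -1 and 1 and dark points are the 29 genes called above and 14 called below the reference; medians lie between -0.20 and 0.18 while single genes reach -3.62 and 4.90.

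Amino acid and peptide carriers were the largest group, with 58 genes, and held 11 of the 29 genes above the reference and 4 of the 14 below. Their median was 0.01, so most genes of the group lay near the pool. The highest of all solute carriers was Slc7a9, the light chain of the brush border system that takes up cystine and basic amino acids. Its log2 ratio was 5.18, 4.77 and 4.76 in the 3 LOI(-) mice and 4.68, 5.04 and 4.32 in the 3 LOI(+) mice. The wild-type mean of 4.90 ± 0.24 (SD, n = 3) is 29.9-fold over the reference (limma adjusted p = 2.67e-07). Slc3a1, the heavy chain that brings Slc7a9 to the membrane, stood at 2.19, 2.32 and 2.30 in LOI(-) mice and also above the pool (adjusted p = 1.58e-06 by limma). Both chains of this carrier were therefore above the cell lines in every mouse.

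Slc7a8 and Slc7a7 are basolateral light chains, for neutral and for basic amino acids respectively, and both pair with the heavy chain Slc3a2. Slc7a8 read 3.17, 3.63 and 3.75 in LOI(-) mice and 3.95, 3.67 and 3.77 in LOI(+) mice, with a wild-type mean of 3.52 ± 0.31 (SD, n = 3). Slc7a7 had a wild-type mean of 1.83 ± 0.12. Their shared heavy chain stood below the pool, with Slc3a2 at -1.26, -1.16 and -0.96 in LOI(-) mice (limma adjusted p = 4.16e-05). A second Slc3a2 probe read -0.39, so the size of this value depends on the probe. Slc3a2 also serves Slc7a5, the large neutral amino acid carrier of many proliferating cells, whose wild-type mean was -0.75.

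Slc7a9 and Slc7a8, with the chloride and bicarbonate exchanger Slc26a3 described further on, are also the members whose promoter holds the letters TTAAT, any base and ATTA in a row, the core of the site bound by HNF1 factors, on either strand. The stretches of 250 bases before the start of each gene are shown for that reason, with this core, a GATA motif (AGATAAG or its complement CTTATCT) and a TATA box (TATAAA) in capitals and everything else in lower case. They are RefSeq sequences of build GRCm38.p6, for Slc7a9 chr7:35448842-35449091 on the plus strand, for Slc7a8 chr14:54781887-54782136 on the minus strand and for Slc26a3 chr12:31437969-31438218 on the plus strand, each written 5′ to 3′ along its gene.
Slc7a9 upstream stretch: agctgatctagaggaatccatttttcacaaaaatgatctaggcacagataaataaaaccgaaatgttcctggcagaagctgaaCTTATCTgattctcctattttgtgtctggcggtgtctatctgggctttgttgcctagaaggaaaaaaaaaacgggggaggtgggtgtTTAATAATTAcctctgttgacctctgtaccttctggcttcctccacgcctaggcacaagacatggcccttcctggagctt
Slc7a8 upstream stretch: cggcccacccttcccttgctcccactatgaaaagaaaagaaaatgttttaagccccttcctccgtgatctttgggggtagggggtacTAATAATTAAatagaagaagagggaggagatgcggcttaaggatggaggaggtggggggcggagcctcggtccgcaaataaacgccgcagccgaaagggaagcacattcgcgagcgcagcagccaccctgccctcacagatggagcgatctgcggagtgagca
Slc26a3 upstream stretch: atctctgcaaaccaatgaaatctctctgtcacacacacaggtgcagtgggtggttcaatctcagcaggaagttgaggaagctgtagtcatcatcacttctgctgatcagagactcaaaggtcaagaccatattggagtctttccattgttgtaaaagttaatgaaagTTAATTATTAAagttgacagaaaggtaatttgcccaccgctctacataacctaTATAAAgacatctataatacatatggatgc
The core begins 80 bases before the start in Slc7a9, 163 in Slc7a8 and 83 in Slc26a3, where matches on both strands overlap by all but 1 base and a TATA box begins 30 bases before the start. In Slc7a9 the GATA motif begins 167 bases before the start. Slc7a9 has 2 annotated promoters, and the one shown was taken because it holds the core.

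A promoter of 300 bases, 250 before and 50 after a start, was found for 188 of the 248 genes, among them 26 of the 29 above and 10 of the 14 below the reference. The HNF1 core was in 3 of the 188 (1.6%), and all 3 were among the 26 above the reference (11.5%), against 0 of the 10 below. Over the 27025 genes of the table it was in 126 (0.466%). These letters were searched after the Slc7a9 promoter had been read, so the count describes these promoters and was not tested. Of the other motifs, the TATA box was in 13.8% of the members' promoters and 15.7% of all, AGATAAG in 4.26% and 3.5%, the CDX motif TTTATGG in 2.13% and 3.21%, and the HNF4 motif CAAAGTCCA in 0.532% and 0.555%, counting both strands. A match is a run of letters and no match says only that the letters are not in this window.

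The sodium- and chloride-dependent family 6 gave 3 of the 12 highest genes. Slc6a9, a glycine carrier, read 4.04, 1.81 and 3.53 in LOI(-) mice, a mean of 3.13 ± 1.17 (SD, n = 3), the widest spread in the wild-type group of all 248 genes. Slc6a4, the serotonin carrier, read 2.47, 2.53 and 2.82. Slc6a20a, which carries proline and other imino acids, read 2.72, 2.14 and 2.76. All 3 passed the test for standing above the pool, with limma adjusted p-values of 0.00038, 5.17e-07 and 2.37e-06. Of the other genes of the group, Slc1a1, a glutamate and aspartate carrier (2.20), Slc15a1, the brush border carrier of di- and tripeptides (1.58), Slc43a2, a large neutral amino acid carrier (1.38), and Slc1a3, another glutamate carrier (1.17), were called above the pool. Slc15a1 had a second probe at 0.13. The genes below it, beside Slc3a2, were Slc6a15 (-2.04), a neutral amino acid carrier of the brain, Slc43a3 (-1.76), a carrier of purine bases filed here by its family, with a second probe at -0.31, and Slc1a6 (-1.32), a glutamate carrier of the brain. The Cy3 signal of Slc6a15 passed the negative control limit on 1 of 6 arrays, so the crypt side of its ratio lay near the limit of detection. For Slc1a1 the Cy5 signal passed that limit on 2 of 6 arrays, so the size of its ratio is uncertain.

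Among 24 sugar carriers and their relatives, the contrast was between the brush border and the general glucose carrier. Slc5a1, which takes up glucose and galactose with sodium at the brush border, read 4.30, 4.44 and 4.20 in LOI(-) mice and 4.29, 4.60 and 4.10 in LOI(+) mice, 19.9-fold over the pool (limma adjusted p = 8.28e-08). Slc2a1, the facilitative glucose carrier of most cultured cells, was the lowest of all 248 genes at -3.73, -3.45 and -3.68 in LOI(-) mice and -3.56, -3.32 and -3.58 in LOI(+) mice, 12.3-fold under the pool. Every mouse showed both, and the ranges of the LOI(-) and LOI(+) mice overlapped. Slc37a4, the glucose-6-phosphate carrier of the endoplasmic reticulum, was called above the pool at 1.11 ± 0.09 (SD, n = 3). The group's median was -0.01.

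Chloride, bicarbonate and proton carriers numbered 33, with 4 above and 1 below the pool. Slc12a8, a member of the cation and chloride cotransporter family, read 4.31, 3.95 and 4.00 in LOI(-) mice and 3.70, 4.01 and 4.14 in LOI(+) mice. Its relative Slc12a4, a potassium and chloride cotransporter of most cells, lay at -2.88, -3.00 and -2.86, so 2 genes of family 12 stood near opposite ends of the whole range. Slc12a7, another potassium and chloride cotransporter, stood at 1.72 with a second probe at 0.02. The apical anion exchangers Slc26a6 (1.62) and Slc26a3 (1.26) were above the pool. For Slc26a3 the Cy5 signal was not well above background on any of the 3 LOI(-) arrays, so the level is a bound, at least 2.38-fold, computed from the lowest Cy5 signal well above background on each array or the probe's own, whichever was higher.

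Carriers of bile acids, fatty acids and sterols numbered 7, and 2 of them were among the 12 highest. Slc51b, a subunit of the basolateral exporter of bile acids, read 3.84, 3.06 and 4.14 in LOI(-) mice and 3.21, 3.55 and 3.27 in LOI(+) mice. Its wild-type SD of 0.56 was the third widest of the 248 genes. Slc27a2, an activating enzyme and carrier of very long chain fatty acids, read 3.42, 3.33 and 3.71 in LOI(-) mice. The other 5 genes of this group lay between -0.42 and 0.19.

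Of 18 genes for the nucleotide sugar family and its relatives in the Golgi and endoplasmic reticulum, 2 were above and 2 below the pool. Slc35g1 read 3.15, 3.05 and 3.20 in LOI(-) mice, an SD of 0.07, and Slc35f2 read 2.82, 2.55 and 2.48. Slc35e4 (-1.70) and Slc35e3 (-1.67) were below. The 4 genes are relatives of the nucleotide sugar carriers by sequence. Slc35b3, a carrier of the activated sulfate donor, was at 0.23 with a second probe at 1.16.

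Zinc and other metal carriers numbered 17, with 1 above and 2 below the pool. Slc39a4, the zinc carrier through which the intestine takes up dietary zinc, read 2.27, 2.07 and 2.40 in LOI(-) mice and 1.90, 1.83 and 2.60 in LOI(+) mice. Slc39a6, another zinc carrier, stood at -2.34, -2.28 and -2.43 in LOI(-) mice. Slc11a1, a metal carrier of macrophage phagosomes, stood at -1.21. Slc31a1, the copper carrier of the cell surface, had a wild-type mean of 0.79, inside the limit of 1.

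The remaining groups each had few called genes. Among 16 organic cation and anion carriers, 2 were above the pool, among them Slc22a5 (mean 1.15), the carnitine carrier. Among 24 mitochondrial carriers, Slc25a10, the dicarboxylate carrier (1.52), and Slc25a20, which exchanges carnitine and acylcarnitine (1.42), were above and Slc25a17, a carrier of the peroxisome (-1.42), below. A second probe of Slc25a10 read 0.02. Among 13 carriers of vitamins, choline and heme, Slc44a4, a carrier of thiamine pyrophosphate (1.24), and Slc52a2, a riboflavin carrier (1.17), were above, and Slc44a2, a choline carrier (-1.14), and Slc48a1, a heme carrier (-1.31), below. Slc28a3, which takes up nucleosides with sodium, was the 1 called gene among 4 nucleoside carriers at 2.15 ± 0.17 (SD, n = 3). Among 11 monocarboxylate carriers, Slc16a3, the lactate exporter of glycolytic cells, was below at -1.21, and the highest was Slc16a11 at 0.71. The Cy3 signal of Slc16a3 passed the negative control limit on 5 of 6 arrays and on 2 of the 3 LOI(-) arrays. None of 14 carriers of phosphate, sulfate and di- and tricarboxylates, 7 sodium and calcium exchangers or 2 urea carriers passed both limits. The highest of the first group was Slc13a2, a dicarboxylate and citrate carrier, at 0.91, and of the second Slc8a3 at 0.15, whose Cy3 signal passed the negative control limit on 2 of 6 arrays.

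**Figure D2:**
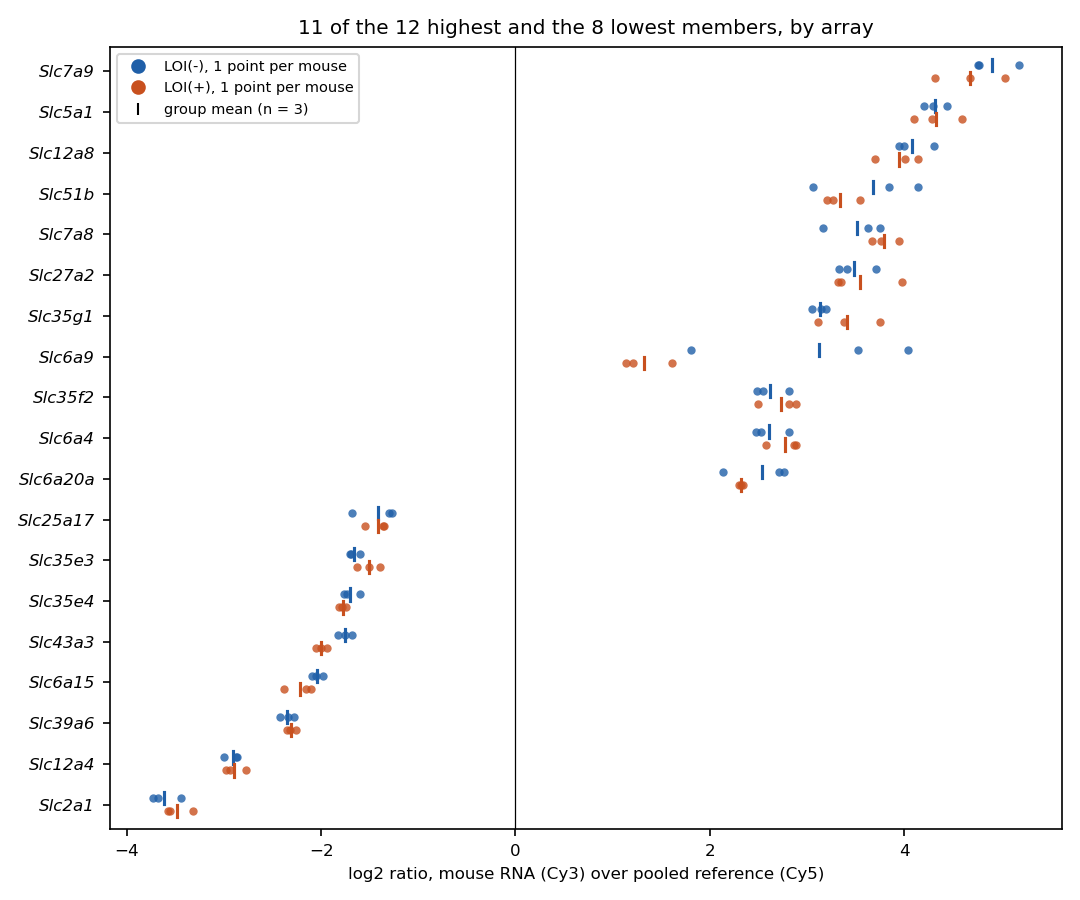
Log2 ratio of crypt RNA over the pooled reference in each mouse for 11 of the 12 solute carrier genes of highest and the 8 of lowest wild-type mean; 1 point per mouse, blue LOI(-) and red LOI(+), with bars at the group means (n = 3 each). The 2 groups overlap for most genes, and Slc6a9, at 1.81 to 4.04 in LOI(-) and 1.14 to 1.61 in LOI(+) mice, shows the widest gap between means.

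The second question was whether carriers differed between LOI(+) and LOI(-) crypts. No solute carrier gene passed an adjusted p of 0.05 in limma, where 0 of all 37939 genes and probes did (0.0%); the smallest adjusted p was 0.80 both among the members and overall. At an unadjusted p under 0.05, 7 of 248 had a positive and 8 a negative difference (2.82% and 3.23%), against 3.93% and 2.22% of all genes and probes. The mean was higher in LOI(+) mice for 119 genes and lower for 129 (48% higher, against 51.3% of all genes and probes), with a median difference of -0.01 log2 and 171 genes within 0.1 of 0. The typical standard error of a difference was 0.0786. The groups' mice did not overlap in 7 genes with higher and 14 with lower LOI(+) values (2.82% and 5.65%), against 6.45% and 4.99% of all genes and probes. The counts at an unadjusted p depended on single mice. Leaving out LOI(+) mouse 1 gave 14 positive differences, leaving out LOI(-) mouse 3 gave 12, and leaving out LOI(-) mouse 1 gave 3. Without LOI(-) mouse 3 there were 5 negative ones. The counts over all genes and probes moved too, to 3345, 2402 and 2096 in the same order, both directions together. With all 6 mice they were 1491 positive and 844 negative.

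**Figure D3:**
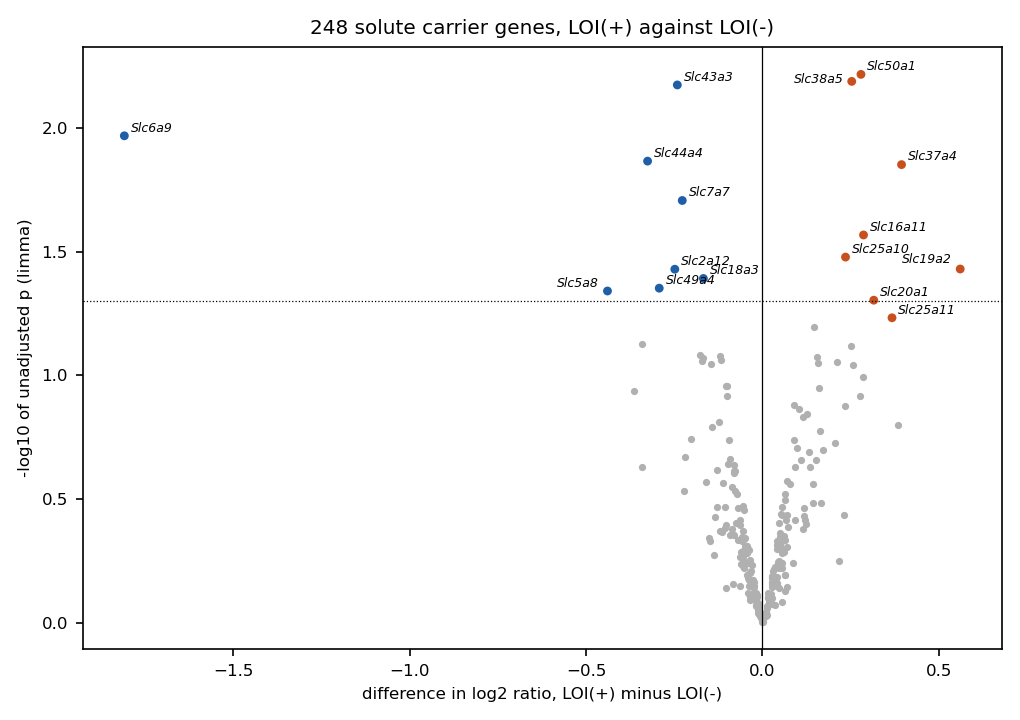
Difference in log2 ratio, LOI(+) minus LOI(-), on the horizontal axis and the negative log10 of the unadjusted limma p on the vertical axis for the 248 solute carrier genes, 1 point each. The dotted line marks an unadjusted p of 0.05, which 15 genes pass; none passes after adjustment, and Slc6a9 stands alone at -1.81.

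The widest difference of any solute carrier belonged to Slc6a9, the glycine carrier. The LOI(-) mice read 4.04, 1.81 and 3.53 and the LOI(+) mice 1.21, 1.14 and 1.61. All 3 LOI(+) mice lay below all LOI(-) mice, but LOI(-) mouse 2 was close to them. The difference was -1.81 ± 0.53 (SE), a 95% confidence interval of -3.05 to -0.57 and a 3.50-fold lower mean, with an unadjusted p of 0.0108 and an adjusted p of 0.80 in limma. It was the most negative difference of all 37939 genes and probes. Its Cy3 signal ran from 4546 to 35630 and its Cy5 signal from 4163 to 5040, so the crypt channel, not the reference, carried the spread. With 1 mouse left out at a time the difference ran from -2.47 (without LOI(-) mouse 2) to -1.35 (without LOI(-) mouse 1), and the adjusted p from 0.363 to 1.00.

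Slc6a9 was also read beside markers of the position along the intestine. Among the LOI(-) mice it ran in the order of the lower markers and the reverse order of the upper ones. Among the LOI(+) mice it followed neither order. Over the 9 markers of the lower small intestine with a value on all 6 arrays, the mean was 1.95, 1.32 and 1.83 in LOI(-) mice and 1.22, 1.43 and 1.52 in LOI(+) mice. Over the 5 such markers of the upper small intestine, it was 1.47, 2.27 and 1.83 in LOI(-) mice and 2.20, 2.41 and 2.49 in LOI(+) mice. In the LOI(-) group, mouse 2 was lowest for the lower markers, highest for the upper ones and lowest for Slc6a9. In the LOI(+) group, mouse 3 was highest for both marker lists and for Slc6a9. There mouse 1 was lowest for both lists and mouse 2 for Slc6a9. LOI(-) mouse 2 was also lowest of its group for Slc51b (3.06 against 3.84 and 4.14), Slc6a20a (2.14 against 2.72 and 2.76) and Slc5a8 (0.35 against 1.08 and 0.82). Between the groups, these means differed by -0.31 for the lower list, where all 10 measured genes had a lower LOI(+) mean, and by 0.51 for the upper list, where 5 of 6 were higher; no gene of either list passed an adjusted p of 0.05. The part of tissue position in these values was not tested.

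**Figure D4:**
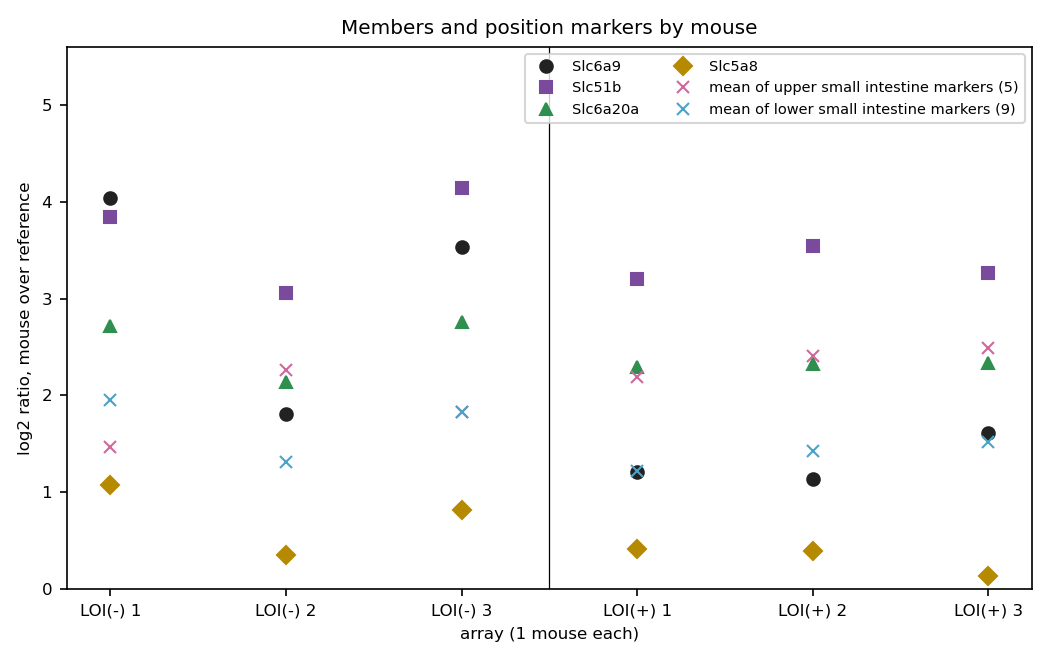
Log2 ratio over the pooled reference in each of the 6 mice for Slc6a9, Slc51b, Slc6a20a and Slc5a8 (filled symbols) and the mean of 5 upper and 9 lower small intestine markers (crosses, which coincide at 1.83 in LOI(-) mouse 3). In the LOI(-) group, mouse 2 has the lowest value of all 4 genes and of the lower markers and the highest of the upper markers; the 4 genes were chosen for display after their values were seen.

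Among the other genes of smallest p with a negative difference, Slc44a4 read 1.39, 1.04 and 1.30 in LOI(-) mice and 0.98, 0.83 and 0.94 in LOI(+) mice. The difference was -0.33 ± 0.0996 (SE), with an unadjusted p of 0.0136. The 2 groups did not overlap. Slc7a7 read 1.72, 1.81 and 1.96 against 1.61, 1.66 and 1.54, a difference of -0.23. Its partner Slc3a2 differed by -0.04, and Slc7a8, the other basolateral light chain, by 0.28. Slc43a3 differed by -0.24 with no overlap, but its second probe differed by -0.002. Slc5a8, a carrier of short-chain fatty acids and lactate in the sodium glucose family, read 1.08, 0.35 and 0.82 in LOI(-) mice and 0.41, 0.39 and 0.13 in LOI(+) mice. Its groups overlapped, and its difference was -0.44 ± 0.181 (SE). The other genes of the 8 were Slc2a12, a glucose carrier (-0.25, and -0.19 at its second probe), Slc18a3, the vesicular acetylcholine carrier (-0.17), and Slc49a4 (-0.29). All these adjusted p-values were 0.80.

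On the positive side the gene of smallest p was Slc50a1, a sugar exporter, at -0.30, -0.44 and -0.31 in LOI(-) mice and -0.06, 0.01 and -0.17 in LOI(+) mice. The difference was 0.28 ± 0.0721 (SE), with an unadjusted p of 0.00609, and the 2 groups did not overlap. Slc38a5, a carrier of glutamine and glycine, read -0.19, -0.36 and -0.23 against 0.00, 0.04 and -0.06, a difference of 0.25 without overlap. The Cy3 signal of Slc38a5 was only 458 to 480, close to the negative control limit of 439 to 449 on these arrays. Slc37a4 read 1.07, 1.05 and 1.21 against 1.34, 1.78 and 1.40, a difference of 0.39 without overlap. Its second probe differed by 0.42, the same direction and nearly the same size. Slc19a2, a thiamine carrier, had the widest positive difference at 0.56 ± 0.218 (SE), and 0.40 at its second probe. Its mice read -1.11, -1.13 and -0.58 in LOI(-) and -0.70, -0.46 and 0.03 in LOI(+), and the groups overlapped.

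The other 4 were Slc16a11, of the monocarboxylate family (0.29), Slc25a10 (0.24), Slc20a1, a phosphate carrier (0.32), and Slc25a11, the mitochondrial carrier of oxoglutarate and malate (0.37). The second Slc25a10 probe differed by -0.12, so the 2 probes disagree in sign. Of the 59 genes with several probes, 26 had probes whose differences disagreed in sign, and 5 had levels more than 1 apart (Slc12a7, Slc15a1, Slc25a10, Slc38a2 and Slc43a3).

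**Figure D5:**
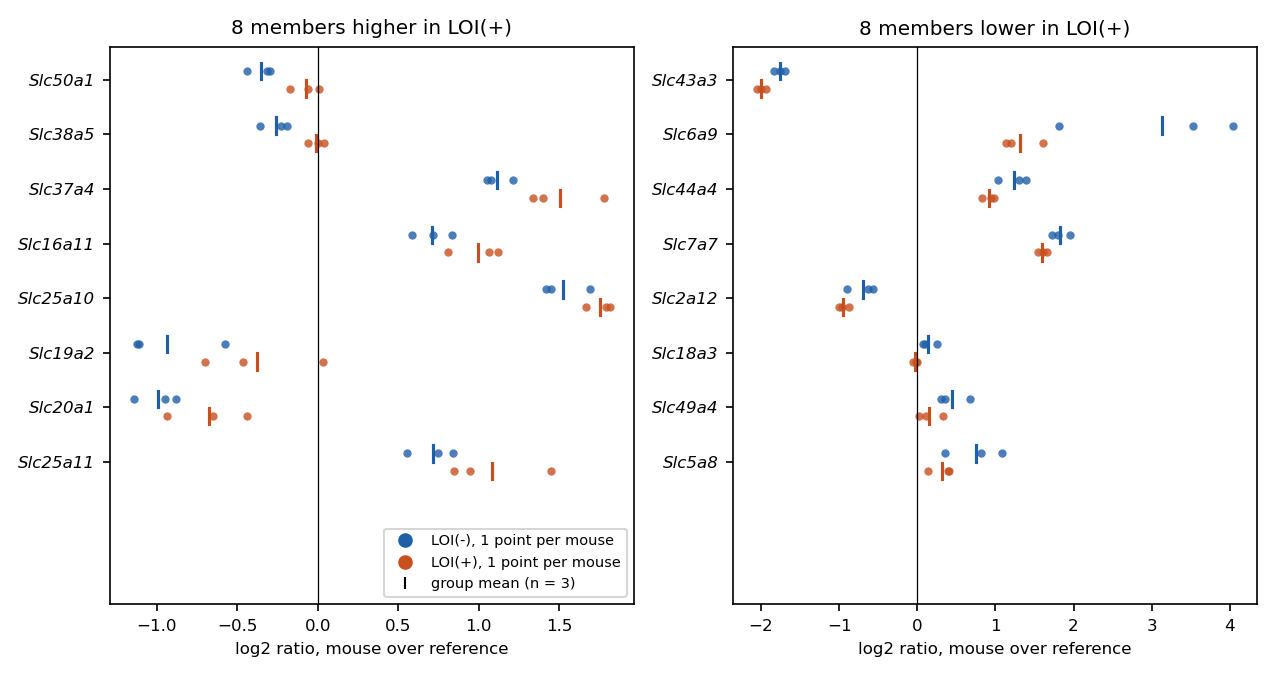
Log2 ratio over the pooled reference in each mouse for the 8 solute carrier genes of smallest p with a higher (left) and with a lower (right) LOI(+) mean; 1 point per mouse, blue LOI(-) and red LOI(+), bars at group means (n = 3 each). Differences are 0.24 to 0.56 on the left and, apart from Slc6a9 at -1.81, -0.44 to -0.17 on the right, and no gene passes an adjusted p of 0.05.

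Substrate groups followed family numbers, so the 24 sugar carriers and relatives include Slc5a8, a carrier of short-chain fatty acids and lactate. This sugar group had 17 higher and 7 lower LOI(+) means and a median difference of 0.04, beside 51.3% higher over the whole array. The monocarboxylate carriers split 3 higher to 8 lower. The 2 positive genes of the sugar group at an unadjusted p under 0.05 in limma were Slc50a1 and Slc37a4, and the 2 negative ones Slc2a12 and Slc5a8. The amino acid and peptide carriers split 29 to 29, with a median of -0.001. Chloride, bicarbonate and proton carriers split 19 higher to 14 lower, mitochondrial carriers 11 to 13 and metal carriers 7 to 10. The genes of smallest p in the groups not yet mentioned were Slc12a9 (-0.12), Slc31a1 (0.16), Slc35f5 (-0.34, and -0.14 at its second probe), Slc27a1 (-0.10), Slc28a3 (-0.13) and Slc24a1, a potassium-dependent sodium and calcium exchanger (0.09). None of these had an unadjusted p under 0.05, and Slc12a9 and Slc27a1 did not overlap between groups. For the 3 highest carriers the interval of the difference held 0: Slc7a9 differed by -0.22 (95% confidence interval -0.68 to 0.24), Slc5a1 by 0.01 (-0.30 to 0.33) and Slc12a8 by -0.13 (-0.47 to 0.20).

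Genes that work with the carriers were described from 7 lists, and 0 of their 92 genes passed an adjusted p of 0.05. In limma without adjustment, 5 had a positive and 2 a negative difference at p under 0.05 (5.43% and 2.17%, against 3.93% and 2.22% of all genes and probes). Of 11 sodium pump genes, Atp1b1, an accessory chain of epithelia, stood at 4.58 over the pool in LOI(-) mice. The gene of smallest p was Atp1b3, another accessory chain (difference 0.21). Of 12 subunits, chaperones and scaffolds, Ezr, the brush border linker ezrin, read 1.12, 1.28 and 1.21 in LOI(-) and 1.03, 0.96 and 1.08 in LOI(+) mice, a difference of -0.18, and Pdzk1 differed by -0.10 with a Cy3 signal under the negative control limit on all arrays. Of 12 brush border digestive enzymes, 5 stood above the pool, and Dpp4, a dipeptidyl peptidase, differed by 0.33 and the protease subunit Mep1a by -0.16.

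The smallest p-values among these lists fell in the water and ion channel list and the ABC transporter list. Of 14 water and ion channel genes, Kcne3, the subunit that holds the basolateral potassium channel Kcnq1 open, read 4.04, 4.28 and 4.30 in LOI(-) mice and 4.55, 4.60 and 4.60 in LOI(+) mice. Kcnq1 itself read 2.21, 2.22 and 2.44 against 2.46, 2.58 and 2.79. Of 15 ABC transporters, Cftr, the apical chloride channel, read 4.31, 4.39 and 4.55 against 4.66, 4.96 and 5.07. The 3 differences were 0.38, 0.32 and 0.48, each without overlap, and none passed the adjustment. Mice did not overlap, with higher LOI(+) values, in 3 of the 14 channel genes, 2 of the 15 ABC genes and 6.45% of all genes and probes. With lower LOI(+) values they did not overlap in 0 of the 14, 1 of the 15 and 4.99% of all. The channel list split 8 higher to 6 lower with a median difference of 0.07, and its most negative was Clca1 at -0.34. The ABC list split 9 to 6 with a median of 0.03. Slc12a2, which loads the cell with the chloride that leaves through Cftr and is named here for that reason after its value was seen, read 0.66, 0.46 and 0.86 against 0.55, 0.66 and 1.45. Its groups overlapped, and its difference of 0.23 became -0.05 without LOI(+) mouse 3. Abcc2, an apical exporter of conjugates, differed by 0.22.

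Of 16 genes of the amino acid starvation response, 10 had a higher and 6 a lower LOI(+) mean with a median difference of 0.02, and the 2 of smallest p were Eif4ebp1, a brake on translation (-0.24), and Gars, a glycyl-tRNA synthetase (0.17). Of 12 zinc and iron genes, 10 were higher and 2 lower with a median of 0.06. The zinc-binding metallothionein gene Mt2 had the widest difference of that list at 0.64, with mice at -1.84, -2.27 and -3.46 against -1.30, -1.29 and -3.06, and its groups overlapped. Hmox1, which breaks down heme, had the smallest p of that list and differed by -0.11.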

How the data were processed

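The deposited scanner files hold spot intensity values of both dyes, which per the file headers came from version A.7.5.1 of Agilent Feature Extraction, and the deposited value table holds log10 values of the authors' own processing. The genome build and the source of probe annotation are not given in the sources used here. Of 41006 probes, 15421 were named through their accession and a RefSeq gene table, and the other 25585 stayed unnamed. Intensities were background-corrected with normexp (offset 50) and loess-normalised within arrays, with control spots at weight 0 and outlier spots left out, and expressed as log2 of Cy3 over Cy5. Each gene took the probe of highest mean Cy3 signal, the crypt side of the ratio, so the choice can favour probes that read high in crypts. With the mean of a gene's probes instead, 26 members were called above and 13 below the reference. Outlier flags removed LOI(+) mouse 3 for Slc8b1 and no other array of any member.

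Group means and differences were fitted over all 6 arrays with lmFit and eBayes of limma 3.58.1 in R 4.3.3, two-sided, adjusted by Benjamini-Hochberg over 37939 genes and unnamed probes. The labels name separate animals. Data were simulated for LOI(+) minus LOI(-) over 37939 genes, with 50 changed genes per size. The fit recovered 32% at a log2 change of 0.5, 96% at 1 and 98% at 2 and 3, with 3 false calls. The simulated noise was drawn independently for each gene from its own SD. Variation that many genes share within a mouse was not simulated, so these rates may not hold for the real arrays. Named genes were the 12 highest and 8 lowest levels, the 8 smallest p per direction, the highest level and smallest p of each substrate group with 3 or more genes, and the 2 smallest p of each partner list; others were named after their values were seen. A few genes that this rule takes are not reported here. The genes, lists and rules were chosen with earlier results of these data known.

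The deposited table correlated with the scanner files' log10 ratio plus the mean reference signal (r 0.9984 to 0.9997, column medians 2.90 to 2.91), and its ratios run crypt over reference on that scale. Precision is limited by the number of arrays.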

Additional observations from a re-analysis of the deposited data

How the results depend on the processing

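No alternative gave a solute carrier gene, or any of the features tested, an adjusted p under 0.05 for LOI(+) against LOI(-). With 1 mouse left out at a time, 3 to 14 members were higher and 5 to 9 lower at an unadjusted p under 0.05. Over all genes and probes, 1498 to 3345 passed that limit in these fits, both directions together. Without moderation of the variances, 3 members were higher and 5 lower, beside 2117 of all genes and probes. With the replicate number as a block, 6 members were higher and 6 lower, beside 2464 of all genes and probes. None passed adjustment. Deviations of mice with the same number correlated at -0.088, -0.248 and 0.353, so the numbers were not taken as pairs. Of 22 named differences, 21 kept their direction under every alternative, and Slc28a3 turned to 0.011 with scale normalisation between arrays, where the cause was not tested. These genes were chosen by smallest p on the same arrays, which favours a kept direction, so the count does not measure robustness. The median difference of -0.007 ran from -0.01 to 0.004. Levels above and below the reference were 29 and 14, and without background correction 13 and 6, since background left in both dyes pulls ratios towards 0; with median centring in place of loess they were 26 and 21, 55.3% of calls above the pool against 67.4%. The same numbers of genes, 29 and 14, but not all the same genes, were called from the LOI(+) mice. There the mean of Slc44a4 was 0.91, inside the limit of 1, and that of Slc25a11 was 1.08, past it. Of 27 named levels, 26 kept direction and side; the level of Slc8a3 was -0.0018 as the mean of its probes, one of which lay below 0, and 0.72 with median centring. The named levels were chosen by rank on these arrays, which favours a kept side in the same way. Normalisation between arrays by Aquantile leaves the log ratios as they are. Fits that change only the variances leave the differences as they are, and leaving out an LOI(+) mouse cannot move an LOI(-) level.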

Other observations

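All 7 members of family 9, the sodium and proton exchangers with their scaffolds, lay between -0.16 and 0.62 over the pool, and 6 of the 7 had a higher LOI(+) mean, with a median difference of 0.05. Of the 6 glutamate and neutral amino acid carriers of family 1, 5 had a higher LOI(+) mean with a median of 0.13, and 2 stood above and 1 below the pool. Family 35 went the other way in count, with 6 higher and 11 lower and a median of -0.04. These families were picked after their values were seen, and no gene in them passed an adjusted p of 0.05 in limma. Beside Slc6a9, the widest spread among LOI(-) mice was in Slc1a3 (SD 0.65), Slc51b (0.56), Slc1a1 (0.44), Slc22a4 (0.43) and Slc26a1 (0.40), against a median SD of 0.0859 over the 248 genes.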
